A study of Mus musculus with 9 samples.

Results

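Binding of the glucocorticoid receptor (GR) was described around 7 genes that encode repressors of the circadian clock, namely Per1, Per2, Per3, Cry1, Cry2, Cipc and Ciart. They are 7 of the 21887 protein-coding genes considered, and they were chosen by name, not by a measured value. For each gene, the window was the gene span in build mm10 with 50 kb to each side. The windows held 51 of the 18584 GR loci of the series and 75 peaks of histone H3 acetylated at lysine 27 (H3K27ac), which marks enhancers and promoters in use.

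The data came from chromatin immunoprecipitation followed by sequencing (ChIP-seq) on granulosa cells, the cells around the oocyte in the ovarian follicle, of wild-type CBA x C57BL/6 F1 mice aged 21 days. Every mouse had been given equine chorionic gonadotropin (eCG, 5 IU), which drives follicle growth. Those of the 0 h group were killed 44 h later, and those of the 6 h group were injected at that point with 5 IU of human chorionic gonadotropin (hCG), used in place of the ovulatory surge of luteinising hormone, and were killed after 6 h. GR was measured in 2 libraries per time and H3K27ac in 1 library at 0 h, and the other 4 of the 9 samples were not analysed here. No 6 h library without hCG was included, so hCG, the added hours after eCG and the injection cannot be told apart. The labels number the replicates but leave out whether each stands for other mice or another pool, so a p-value here reflects only how these libraries vary, and that variation may be technical. Cells were collected by puncturing ovaries. An H3K27ac peak was counted for 9 of 9 granulosa marker genes, 2 of 4 theca, 1 of 4 oocyte, 1 of 4 endothelial and 0 of 4 leukocyte marker genes. The peak had to cover the gene start or, where none was listed, lie within 1 kb of either gene end. Among those counted, this looser rule applied to Amh, Hsd17b1, Fst, Cyp17a1, Gdf9 and Cdh5. Over a known start of any protein-coding gene, without the looser rule, the share was 37.7%.

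The circadian clock is a feedback loop. The activators CLOCK and BMAL1 switch on target genes through E-box sequences, and the PERIOD proteins (from Per1, Per2 and Per3) and cryptochromes (from Cry1 and Cry2) are made in turn, enter the nucleus and block them. CIPC binds CLOCK, and CIART, also called CHRONO, binds BMAL1, and both act as further repressors. Per1 is a textbook glucocorticoid-induced gene, through which the adrenal hormone rhythm can set clocks in peripheral tissues. Clock genes are expressed in granulosa cells.

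Sequences ahead of the gene starts are shown first because GR loci covered most of them. RefSeq promoter entries (build GRCm38.p6, with the same coordinates as mm10) were found for 6 of the 7 genes, Per1, Per3, Cry1, Cry2, Cipc and Ciart. The 250 bases before a start are printed 5′ to 3′ on the strand of the gene, and capitals mark each match, on either strand, to the E-box CACGTG, the D-box TTATGTAA (bound by clock output factors such as DBP), or TGACG, a partial cAMP response element. The stretches are chr11:69098699-69098948 on the plus strand for Per1, chr12:86947093-86947342 on the plus strand for Cipc, chr10:85185055-85185304 on the minus strand for Cry1, chr3:95882229-95882478 on the minus strand for Ciart and chr4:151044666-151044915 on the minus strand for Per3.
Per1: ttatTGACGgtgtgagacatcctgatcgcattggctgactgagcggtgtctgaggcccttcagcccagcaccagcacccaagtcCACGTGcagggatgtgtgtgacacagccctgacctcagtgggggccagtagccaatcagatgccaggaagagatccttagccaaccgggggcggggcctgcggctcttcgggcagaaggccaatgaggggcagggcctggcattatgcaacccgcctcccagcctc
Cipc: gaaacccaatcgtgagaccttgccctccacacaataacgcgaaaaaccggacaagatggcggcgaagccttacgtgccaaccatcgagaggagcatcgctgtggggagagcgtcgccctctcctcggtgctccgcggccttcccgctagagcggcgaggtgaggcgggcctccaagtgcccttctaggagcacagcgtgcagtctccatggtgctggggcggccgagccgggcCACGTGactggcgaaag
Cry1: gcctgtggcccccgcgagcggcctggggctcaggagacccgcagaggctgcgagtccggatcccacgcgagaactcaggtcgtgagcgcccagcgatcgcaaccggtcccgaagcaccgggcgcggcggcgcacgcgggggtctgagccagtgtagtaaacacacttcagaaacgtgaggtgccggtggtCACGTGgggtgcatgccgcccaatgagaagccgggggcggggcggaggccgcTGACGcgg
Ciart: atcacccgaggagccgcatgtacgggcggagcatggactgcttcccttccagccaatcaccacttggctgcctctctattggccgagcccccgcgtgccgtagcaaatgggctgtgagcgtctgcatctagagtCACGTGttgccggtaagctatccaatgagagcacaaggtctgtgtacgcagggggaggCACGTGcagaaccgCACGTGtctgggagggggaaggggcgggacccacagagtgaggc
Per3: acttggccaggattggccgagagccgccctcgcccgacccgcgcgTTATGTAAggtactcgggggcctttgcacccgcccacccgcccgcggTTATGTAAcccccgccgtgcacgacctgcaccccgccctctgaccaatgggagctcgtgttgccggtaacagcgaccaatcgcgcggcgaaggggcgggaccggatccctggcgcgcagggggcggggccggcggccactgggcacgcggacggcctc

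An E-box was found in the promoters of 4 of these 6 genes. It lay at −166 to −161 before the Per1 start, at −17 to −12 before the Cipc start and at −60 to −55 before the Cry1 start. The Ciart stretch held 3 E-boxes, at −116 to −111, −58 to −53 and −44 to −39. Of 21263 promoter stretches of protein-coding genes of the same length, 6.63% held an E-box, and of the 3996 whose start lay under a GR locus called in all 4 libraries, 9.41% did. These shares count single stretches and not genes. Per1 and Cipc were searched at 2 starts each, and their other stretches, not printed, held no E-box. The Per3 stretch held 2 D-boxes, at −205 to −198 and at −158 to −151, a sequence present in 0.795% of all stretches. TGACG was in 20.2% of all stretches and in 35.6% of those whose start lay under a GR locus called in all 4 libraries. It occurred ahead of a start of Per1, Cry1, Cry2 and Cipc (for Cipc ahead of its other start, not printed). None of the 6 genes had the whole cAMP response element TGACGTCA. That element was in 1.92% of all stretches and in 4.15% of those with such a GR locus.

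The GR half-site AGAACA was found on neither strand in any of these stretches, printed or not, and occurred in 13.7% of all stretches and in 9.16% of those whose start lay under a GR locus in all 4 libraries. The full inverted repeat of that half-site, with 3 bases between, occurred in 2 of the 21263 stretches (0.00941%) and in none of the members. These letters were searched exactly, and a match or its absence describes only this window.

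A library called a locus when one of its peaks lay in it. Loci are merged peaks of the 4 GR lists that overlap by 1 bp or more. The fold enrichment of a peak is the authors' ratio of signal to estimated background. It is not on 1 scale across libraries, so each value is also given as a percentile within its own list, where 100 is the strongest peak. All 7 genes had a GR locus called in all 4 libraries in the window, where 45.5% of protein-coding genes had one. A locus found at 6 h alone, that is in each 6 h library and no 0 h library, was present at 2 of the 7 (Cry2 and Cipc), against 16.5% of genes. The reverse, a locus found at 0 h alone, was present at 1 of the 7 (Per1), against 6.78%. A GR locus of any kind lay in the window of 68.8% of genes and an H3K27ac peak in that of 75.4%, and all 7 members had both.

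**Figure D1:**
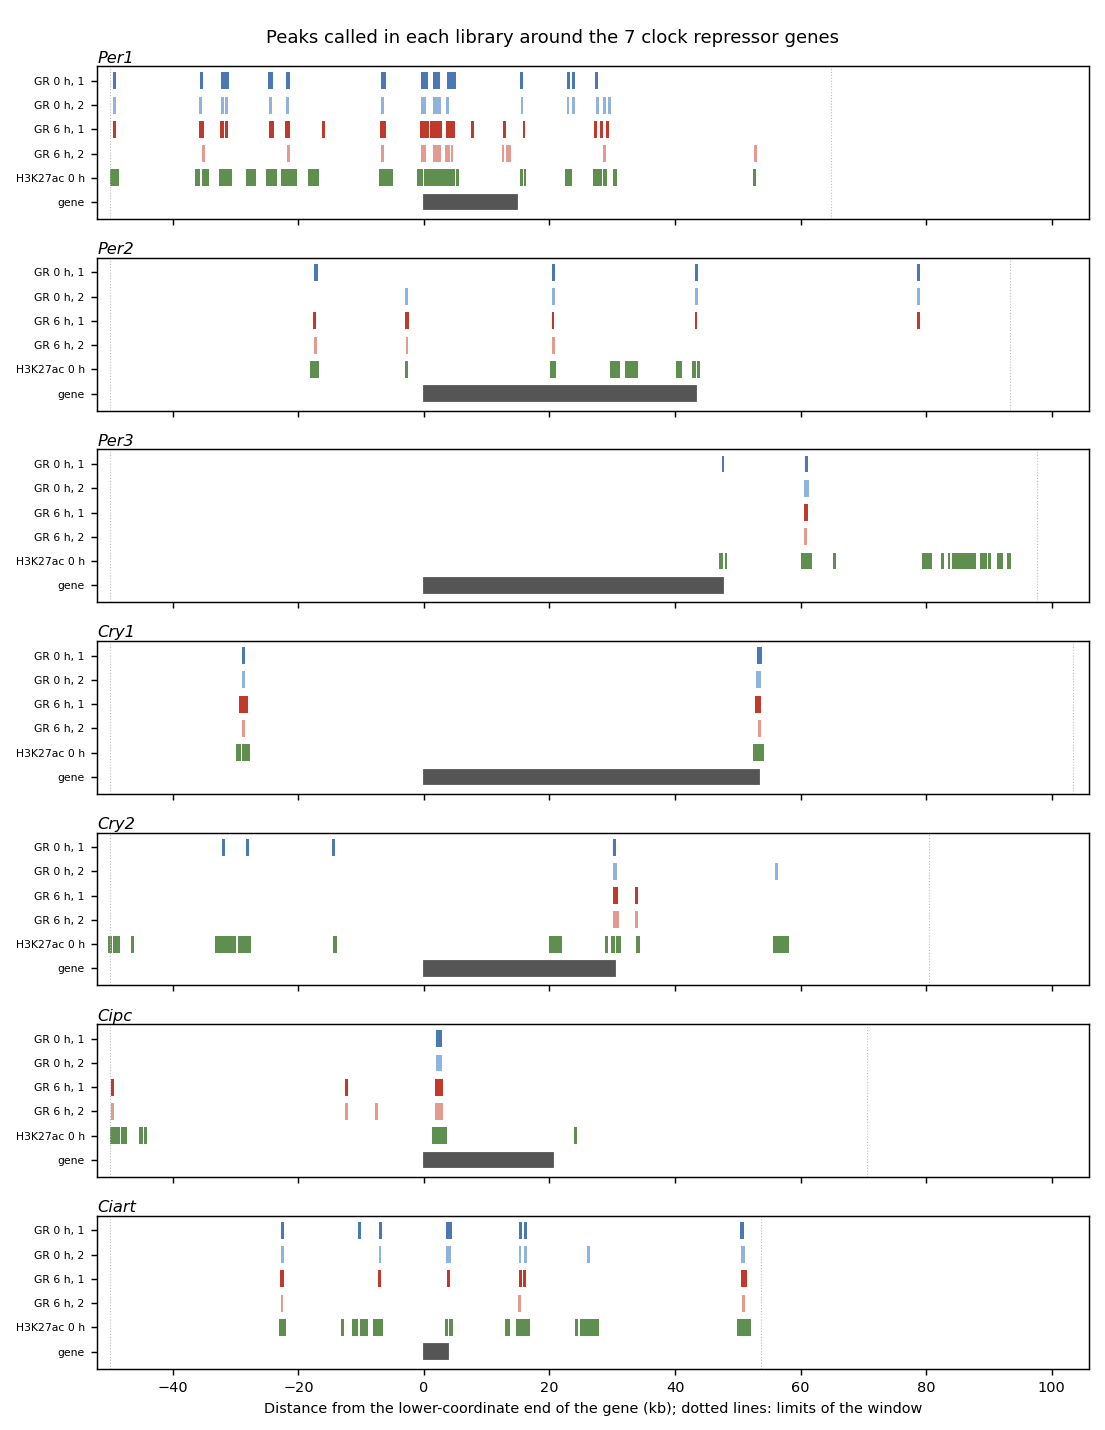
Peaks of each library (coloured boxes, widened where too narrow to see) along the window of each gene (grey bar), as distance in kb from the end of the gene with the lower coordinate. Per1 has GR peaks along most of its window, while Cry1 has GR loci at 2 places only, each with H3K27ac.

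The members differed widely in number of loci. Per1 had 23, which placed it at the 99.9th percentile of all protein-coding genes, and Per3 had 2, against a median of 2 over all genes. Ciart had 8, Cry2 6, Per2 5, Cipc 4 and Cry1 3, and the median of the 7 was 5. The windows of the members were 103758 to 153355 bp long, with a median of 130440 bp against 117169 bp for all genes. Of the 51 loci, 19 had the member as the nearest protein-coding gene and the other 32 lay nearer to, or in, a neighbour.

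**Figure D2:**
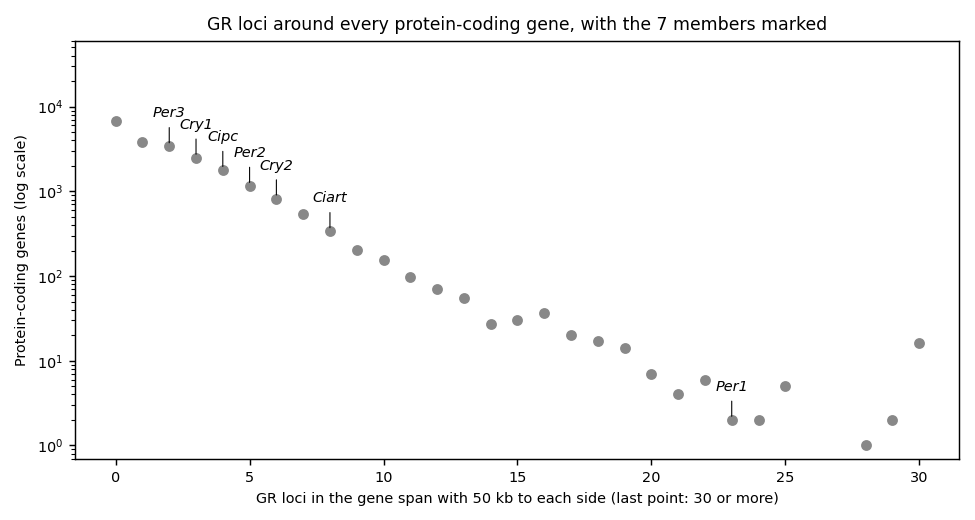
Number of protein-coding genes (y axis, log scale) by the number of GR loci in the window (x axis). Per1, with 23 loci, lies toward the right, and Per3, with 2, at the median of all genes.

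Per1 (gene 18626, chromosome 11, 69095108 to 69109965, plus strand) carried the strongest GR locus of the group, at 69096007 to 69098024. Its fold enrichment was 42.60 and 44.77 in the 0 h libraries and 47.59 and 30.89 in the 6 h libraries. In fold enrichment the times overlapped, since the 6 h libraries held both the highest and the lowest value. In its own list this peak ranked 2, 2, 4 and 26, in the same order, so that by rank both 6 h libraries placed it lower. The 4 summits, at 69097096, 69097093, 69097077 and 69097095, lay within 19 bp of each other. Over all 5012 loci called in all 4 libraries the median distance between the outermost summits was 104 bp. The median summit was at −1855 bp from the RefSeq start at 69098949 and still inside the gene span, which begins further upstream. No sequence is printed for it, since the promoter table covers only the bases next to a start.

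A second Per1 locus, at 69098486 to 69100080, covered that start and ended short of the other RefSeq start at 69100152. The summits lay at −46, −122, −78 and −24 bp from the start at 69098949, within the stretch printed above. Fold enrichment was 6.52 and 11.40 at 0 h and 15.76 and 9.51 at 6 h, so the times overlapped. Within the lists these were the percentiles 34.84, 87.15, 94.69 and 80.61, and the first 0 h library was lowest. Another locus called in all 4 libraries lay across the upstream end of the gene span (69094521 to 69095871), with 6.52 and 8.59 at 0 h and 8.49 and 5.20 at 6 h. An H3K27ac peak of 4922 bp (69095118 to 69100039) touched all 3 of these loci. Its width was at the percentile 99.1 of all H3K27ac peaks.

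Further into Per1, 5 loci were called in 1 library each, all of them at 6 h. The first 6 h library called 2 (fold enrichment 6.09 and 7.42) and the second called 3 (5.17, 6.59 and 6.82). None of the 5 overlapped an H3K27ac peak. A weak locus 414 bp beyond the gene was called in both 0 h libraries and the first 6 h library, with 5.64, 5.43 and 4.50. Among the 5 within the gene, no 2 overlapped. Under the 1 bp rule, the class called only in both 6 h libraries therefore had no member around Per1. The 3 of the second library and that with 7.42 of the first lay side by side, between 69107473 and 69108903. Merging peaks up to 500 bp apart joins them into 1 locus called in both 6 h libraries and no 0 h library.

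The other loci of the Per1 window belonged by position to its neighbours. At Tmem107, a locus called in all 4 libraries (69073033 to 69073792) had 14.97 and 17.27 at 0 h and 14.76 and 11.46 at 6 h. Other loci called in all 4 libraries lay at Vamp2 (12.63, 8.99, 11.39 and 6.88, in the order of libraries above) and at Borcs6 (4.46, 5.03, 9.32 and 5.00). The pair called only at 0 h lay on the other side, at Hes7, a gene of another repressor family. One, at 69117827 to 69118222, was 684 bp from Hes7 and inside H3K27ac, with 6.76 and 8.75. The other, at 69118677 to 69119028, overlapped Hes7 and lay outside H3K27ac, with 5.22 and 5.04. These were the percentiles 39.21 and 65.99 for the former and 10.89 and 5.83 for the latter. The strongest of the remaining loci, by mean percentile, also overlapped Hes7 (69122163 to 69122845), and was called in 3 libraries with 5.34, 7.23 and 7.27.

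The genes most like Per1 were sought by the summed difference, over the 4 libraries, in the percentile of the strongest GR peak in the window. The 3 nearest were Kmt2a, with a summed difference of 0.258 percentile points, Zbtb16, with 0.260, and Gtf2a1, with 0.925. The strongest peak of Gtf2a1 had 39.74 and 35.47 at 0 h and 31.69 and 23.34 at 6 h. The measure rests on 4 libraries and on the top of each list, and describes likeness in peak strength alone.

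Per2 (gene 18627, chromosome 1, 91415977 to 91459351), whose product forms the core of the repressor complex with Per1 and the cryptochromes, had 5 loci. The strongest was inside the gene (91436308 to 91436827), and exon or intron is not told apart here. Its fold enrichment was 13.64 and 11.48 at 0 h and 12.32 and 8.95 at 6 h. The times overlapped in fold enrichment but not in percentile, which was 94.57 and 87.56 at 0 h and 86.59 and 76.92 at 6 h. An H3K27ac peak of 1036 bp covered it. At the end of the gene span with the higher coordinate, a weak locus (91459100 to 91459566) was called in both 0 h libraries and in the first 6 h library, with 3.90, 4.89 and 4.01. A locus outside H3K27ac, at the neighbour Traf3ip1, was called in the same 3 libraries with 9.20, 10.88 and 8.13. Of 5 H3K27ac peaks that touched Per2, 3 had no GR locus, among them the widest, of 2118 bp.

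Per3 (gene 18628, chromosome 4, 150997018 to 151044707, minus strand), the least clock-essential of the Period genes in mice, had almost no GR peak of its own. One library, the first at 0 h, called a peak at 151044434 to 151044653, with a fold enrichment of 4.36. Its summit was 143 bp after the start, and it overlapped an H3K27ac peak of 582 bp that lay wholly after the start without covering it. Another H3K27ac peak lay before the start, from −556 to −239 bp, and overlapped no GR locus. The other locus in the window, called in all 4 libraries, lay 12869 bp from Per3 at Vamp3 and Gm38529, with 7.13 and 7.75 at 0 h and 9.73 and 4.23 at 6 h. Of the 12 H3K27ac peaks in the window, 2 overlapped a GR locus. Where a library gives no value, its peak was below the limit the authors set, which is not the same as no binding.

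Cry1 (gene 12952, chromosome 10, 85131700 to 85185054, minus strand), the gene of the stronger repressor of the 2 cryptochromes, had 1 locus of its own. It covered the start (85184453 to 85185527) and lay in an H3K27ac peak of 1635 bp. Fold enrichment was 9.61 and 9.34 at 0 h and 13.12 and 7.21 at 6 h. The 6 h values lay on both sides of the 0 h values. The 0 h summits were at −156 and −125 bp from the start, in the printed stretch, and the 6 h summits were after it, so that the outermost summits were 288 bp apart. The percentiles were 77.94, 72.86, 89.29 and 55.46. A locus of like strength in the window (85102725 to 85103755; 10.52, 10.29, 12.48 and 7.34) lay at Tmem263, 27945 bp from Cry1. Beside it, at Fhl4, the first 6 h library alone called a peak with 6.63.

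Cry2 (gene 12953, chromosome 2, 92403646 to 92434085, minus strand) was the member with a 6 h locus nearest to its start. The locus at 92437278 to 92437738 lay 3193 bp outside the gene, with its median summit at −3436 bp from the start, and Cry2 was the nearest gene. Its fold enrichment was 10.18 and 7.28 at 6 h (percentiles 75.44 and 56.48), and no 0 h library called it. The same site already overlapped H3K27ac at 0 h. At the Cry2 start itself a weak locus was called in all 4 libraries (92433730 to 92434487), with 4.61 and 7.26 at 0 h and 5.84 and 4.46 at 6 h, at the percentiles 4.17, 41.91, 15.35 and 4.93. The 4 other loci in the window were each called in 1 of the 0 h libraries, at Large2, Pex16, Mapk8ip1 and Slc35c1, with values of 4.42 to 6.59.

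Cipc (gene 217732, chromosome 12, 86944741 to 86965364, plus strand) had the second strongest locus of the group, over both of its RefSeq starts (86946440 to 86947834). Fold enrichment was 33.45 and 33.12 at 0 h and 31.17 and 22.49 at 6 h. Both 6 h values were below both 0 h values, by little in the first 6 h library. The ranks within the lists were 7, 6, 29 and 121. The 4 summits spread over 131 bp, and each lay between the start at 86947041 and the start at 86947343, in the printed stretch, at −82, −149, −213 and −169 bp from the latter. An H3K27ac peak of 2312 bp covered the locus.

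The window of Cipc also held 2 loci called only at 6 h. One, at 86932186 to 86932548, lay 12193 bp from the gene with Cipc the nearest gene and outside H3K27ac, with 8.87 and 7.32 (percentiles 62.59 and 57.12). The other, at 86894855 to 86895277, lay 49464 bp from Cipc and 10041 bp from Irf2bpl, in H3K27ac, with 7.75 and 7.97 (percentiles 47.92 and 66.87). At both places the 0 h libraries gave no value. The second 6 h library alone called a further peak 7557 bp from Cipc, with 6.70.

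Ciart (gene 229599, chromosome 3, 95878500 to 95882257, minus strand), the shortest of the 7 genes, had 1 locus of its own, over its start (95882041 to 95882900). It was called in 3 libraries, with 6.25 and 8.24 at 0 h and 5.94 in the first 6 h library, and was not called in the second 6 h library. The median summit lay at −346 bp from the start, beyond the printed stretch with its 3 E-boxes, and the 6 h summit lay within it, at −222 bp. The other 7 loci lay at neighbours. Those called in all 4 libraries were at Prpf3 (6.71, 8.54, 11.66 and 7.26), Aph1a (6.25, 4.52, 5.66 and 6.31) and Anp32e (7.55, 11.18, 11.71 and 5.12).

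**Figure D3:**
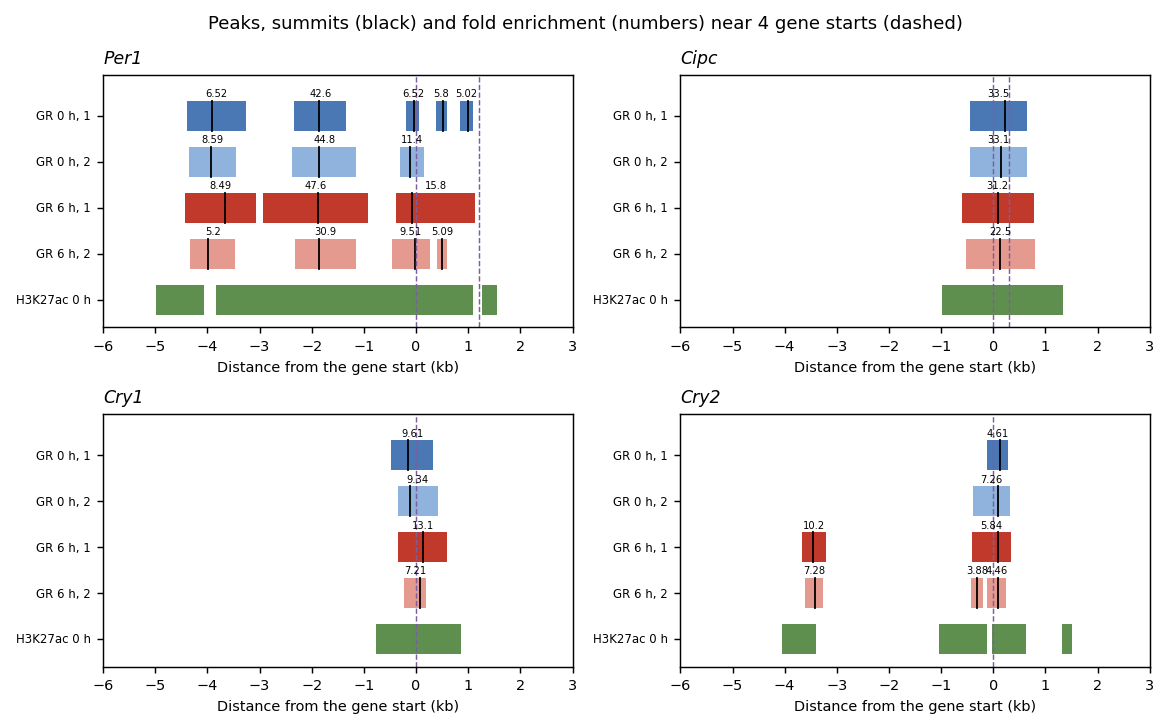
Peaks (boxes), summits (black lines) and fold enrichment (numbers) of each library from 6 kb before to 3 kb after the start of 4 genes (dashed; both starts are drawn for Per1 and Cipc), with H3K27ac below. The Per1 summits line up at −1855 bp in all 4 libraries, and the Cry2 locus ahead of the start is drawn in the 6 h libraries alone.

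Ordered by the mean percentile of the strongest locus for which the member was the nearest gene (an absent call counted as 0, n = 4 libraries), Per1 came first (99.93 ± 0.11, SD) and Cipc second (99.64 ± 0.52). Per2 (86.41 ± 7.26) and Cry1 (73.89 ± 14.07) followed, then Cry2 (32.98 ± 38.86), Ciart (26.29 ± 24.77) and Per3 (0.63 ± 1.26). Per1 was above Cipc, and Cipc above Per2, in 4 of 4 libraries, although the means of Per1 and Cipc differed by less than the SD of Cipc. Per2 was above Cry1 in 3 of 4 libraries and Cry2 above Ciart in 2 of 4. The means of Per2 and Cry1 differed by less than the SD of Cry1 but by more than that of Per2. Those of Cry2 and Ciart differed by less than the SD of either. The Cry2 value comes from the locus called at 6 h alone, which sets its spread.

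**Figure D4:**
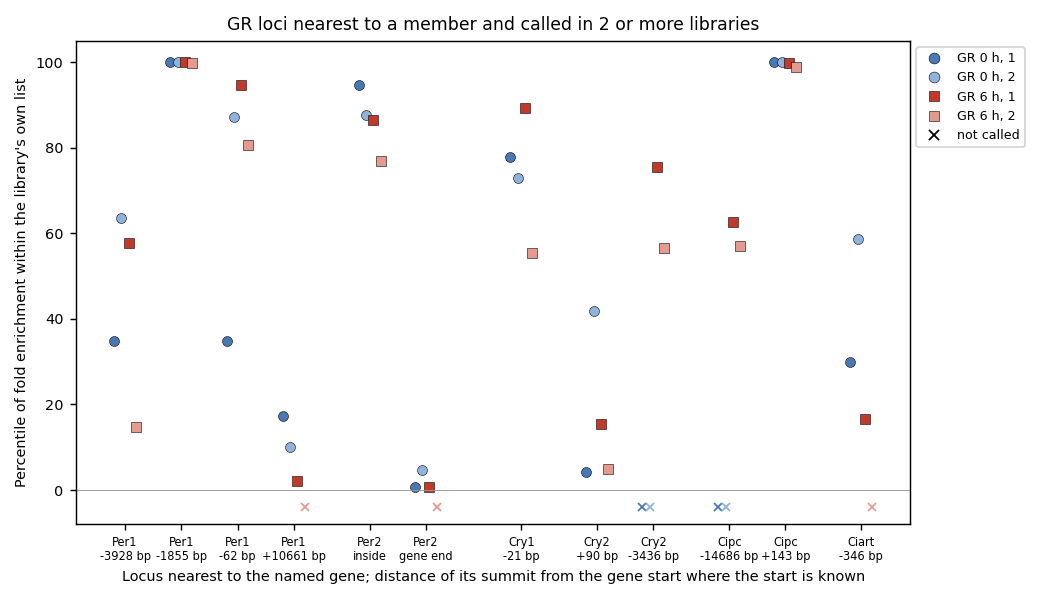
Percentile of the fold enrichment within the list of each library (y axis) for the loci nearest to a member and called in 2 or more libraries; crosses below the line at 0 mark libraries without a call. The main loci of Per1 and Cipc stay near 100 in all 4 libraries, while the Cry2 and Cipc loci far from the start have values at 6 h only; Per3 had no such locus.

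The 7 windows together contained 36 and 33 GR peaks in the 0 h libraries and 37 and 28 in the 6 h libraries. The means were 34.5 ± 2.12 and 32.5 ± 6.36 (SD, n = 2 each), a difference of −2.0 peaks, smaller than the SD at 6 h (exact permutation test, two-sided, p = 1.0; the smallest p for 2 against 2 is 0.333). The direction turned to 2.5 more peaks at 6 h without the second 6 h library, and to 1.5 more with the stronger 50% of each list. For that cut, and for the cut to 9726 peaks below, peaks were ordered by the authors' p-value and not by fold enrichment. As a share of each list on the chromosomes used, 0.356% and 0.339% lay in the windows at 0 h and 0.251% and 0.264% at 6 h. These shares did not overlap between the times, and their difference of −0.0899 percentage points had the smallest p the design allows (0.333, exact permutation test). The whole lists had 10116 and 9726 peaks at 0 h and 14746 and 10588 at 6 h, so 1 of the 6 h lists was much longer. With each list cut to its 9726 strongest peaks, the share difference was −0.0977 percentage points and the peak difference −9.5 peaks (exact permutation p = 0.333 for each). With the stronger 50% of each list, the share difference was −0.0384 (exact permutation p = 1.0), so the shares then overlapped.

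Of the 15 loci called in all 4 libraries, the fold enrichments of the times overlapped at 13, and at 2 both 6 h values were below both 0 h values, those at the Cipc start and at Tmem107. At none were both 6 h values higher. Over all 5012 such loci, the values overlapped at 70.1%, were lower at 6 h at 20.8% and were higher at 9.16%. By percentile within the list, 4 of the 15 were lower in both 6 h libraries (28.8% of all loci), the main loci of Per1 and Per2 joining the former pair. At Per1 the margin was small, with 99.99 in both 0 h libraries and 99.98 and 99.76 in the 6 h libraries. By the same measure 1 was higher, at Borcs6 (11.3% of all loci), and 10 overlapped. The Borcs6 percentiles were 3.02 and 5.69 at 0 h and 67.60 and 11.69 at 6 h. Its outermost summits were 442 bp apart, with both 6 h summits on 1 side of both 0 h summits, so the times may not share 1 site there. The second 6 h library had the lowest fold enrichment of the 4 at 11 of the 15 loci and at 70.4% of all such loci. Its list also had the lowest median fold enrichment (6.89, against 7.34, 7.68 and 7.89), and its part in the lower 6 h values was not tested.

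The same library was the one most often without a call. Of the 51 loci, 15 were called in 4 libraries, 12 in 3, 7 in 2 and 17 in 1. Of the 12 in 3 libraries, 10 lacked the second 6 h library (83.3%), as did 69.7% of the 2625 such loci of the series. They include the loci at the Ciart start and at the higher-coordinate end of the Per2 span. The set called in both 0 h libraries and the first 6 h library made up 19.6% of the loci near the members and 9.85% of all loci. Without the second 6 h library, 25 loci in place of 15 were called in every library, and 8 in place of 3 were called at 6 h alone. Without the first 6 h library, 8 were called at 6 h alone and 12 in place of 2 at 0 h alone. The number at 0 h alone was 4 without the first and 8 without the second 0 h library.

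GR loci near the members lay mostly in chromatin that carried H3K27ac at 0 h. All 15 loci called in all 4 libraries overlapped an H3K27ac peak (95% Wilson interval 79.6 to 100), as did 98.4% of all 5012. Of the 3 loci only at 6 h, 2 did, against 39.3% of all 2806, and of the 2 only at 0 h, 1 did, against 91.3% of all 771. Of all 51 loci, 41 did (80.4%, 67.5 to 89.0), against 74.4% of all loci. The intervals cover counting error only. Read the other way, 44 of the 75 H3K27ac peaks near the members (58.7%) overlapped a GR locus, against 36.1% of all H3K27ac peaks. Among genes with a known start, a GR locus called in all 4 libraries covered a start of 4 of 6 members (Per1, Cry1, Cry2 and Cipc), against 20.3% of genes. A GR locus of any kind covered a start of 5 (Ciart added), against 36.6%, and H3K27ac covered a start of 5, against 37.7%. In cells measured in bulk, binding in few cells and weak binding in all cells cannot be told apart.

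Set beside these repressors were 26 other genes of the clock or of the turnover of its repressors. A GR locus called in all 4 libraries lay in 18 of their windows (69.2%, against 45.5% of all protein-coding genes). A locus only at 6 h lay in 8 (30.8%, against 16.5%) and a locus only at 0 h in 2 (7.69%, against 6.78%). The median length of these windows was 134346.5 bp, against 117169 bp for all genes, and the longest was 834843 bp. By the strongest locus in the window, whichever gene it was nearest to, the first 4 were Dbp, Npas2, Nr1d2 and Nfil3. The order of the members above used only loci nearest to the member. The locus in the Npas2 window lay 4369 bp from Npas2, at Rpl31. That in the Nr1d2 window lay 31324 bp from Nr1d2, at Rpl15 and Nkiras1. The locus in the Dbp window (29.73 and 30.70 at 0 h, 24.25 and 14.46 at 6 h) lay 7311 bp from Dbp, at the neighbours Sphk2 and Rpl18. The Nfil3 locus (10.76, 10.35, 14.99 and 11.65) overlapped that gene, which encodes a repressor that competes for D-boxes. Loci only at 6 h lay, among others, in the windows of Npas2, Rora, Dbp, Tef, Nfil3 and Bhlhe40. The named gene was the nearest for those of Rora, Nfil3 and Bhlhe40, while those of Npas2, Dbp and Tef lay nearer to, or in, neighbours. Loci only at 0 h lay at Fbxl21 (8.81 and 5.46) and Timeless (8.32 and 6.49). Clock itself had 1 locus in all 4 libraries in its window, 25477 bp away at Tmem165, and Arntl, the gene of BMAL1, had none called in all 4. A locus inside Arntl, in H3K27ac, was called in both 0 h libraries (5.11 and 6.22) and the first 6 h library (6.51).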

How the data were processed

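GR and H3K27ac ChIP-seq peaks were analysed in 5 libraries. Reads had been aligned with Bowtie2 2.4.5 to mm10 and peaks called with MACS2, 1 list per library, per the submitters' processing notes (MACS2 version: not given in the sources used here). The deposited GR lists give a score, a fold enrichment (a ratio over estimated background, column 7), −log10 p-value and −log10 q-value, and a summit position. The deposited H3K27ac list gives positions only. The weakest −log10 p-values in the authors' lists were 9.02, 9.00, 9.02 and 9.10. Pooled input libraries are among the samples not analysed here. Which control and what read depth lie behind each list was not stated, so the depth behind a value is unknown. All positions are 1-based.

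Only chromosomes 1 to 19, X and Y were used. Loci are peaks joined where they overlap (1 bp or more), the strongest peak of a library standing for it. Gene spans came from RefSeq (GRCm38.p6) and gene starts and promoter sequences from RefSeq promoter entries. Where no start was listed for a marker gene, H3K27ac within 1 kb of either gene end was counted. Numbers per library were compared by exact permutation of the library labels. Loci were described without a test. The merging of peaks and the classes of loci were tested on simulated data, and the overlap count on a small made-up set. Other steps were not tested in this way. Computation was in Python 3.11.15 with pandas 2.3.3, numpy 2.4.6 and scipy 1.17.1. Members, gene lists and tests were chosen with earlier results of these data known. For each member, every locus of the 3 classes and the strongest of the other sets were to be named, and further loci are named for completeness. For other clock genes these were the 4 with the strongest loci and those with a locus only at 1 time, some of which are not reported here. Clock and Arntl were singled out after their values were seen. Alternatives for windows, list length, merging, overlap and left-out libraries are given in the closing section.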

Additional observations from a re-analysis of the deposited data

How the results depend on the processing

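The difference in peaks in the 7 windows (6 h minus 0 h, −2.0) turned to 1.5 with the stronger 50% of each list and ranged from −6.5 to 2.5 with 1 library left out; it was 2.5 without the second 6 h library. It was −9.5 with equal lists of 9726 peaks (exact permutation p = 0.333), −6.0 at 100 kb and 0.0 at 10 kb. The cause was not tested. The share difference kept its sign in every alternative run, at −0.0384 with the stronger 50% (exact permutation p = 1.0), −0.0313 at 10 kb, −0.166 at 100 kb, −0.0977 with equal lists and −0.0982 to −0.0816 with 1 library left out. Chosen after seeing the data, leaving out the Per1 window gave −0.0429 percentage points. Equal replicate numbers did not deviate together (correlation 0.03 over 5012 loci); with a replicate block the share difference was −0.0899 (exact permutation p = 0.5) and the peak difference −2.0 (p = 1.0).

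Loci in all 4 libraries (15) became 8 with windows of 10 kb, 8 with the stronger 50% of each list and 7 with the member as nearest gene. With 1 library left out they ranged from 15 to 25, the 25 without the second 6 h library. Loci only at 6 h (3) became 1 at 10 kb and 6 with summits within 200 bp joined, and ranged from 4 to 8 with 1 library left out (8 without either one of the 6 h libraries). With peaks up to 500 bp apart merged their number stayed 3, but then included 1 inside Per1. Loci only at 0 h (2) became 4 at 100 kb, 0 with the stronger 50%, 6 with equal lists of 9726 peaks, 1 with peaks up to 500 bp apart merged, 4 with summits joined and 0 with the member as nearest gene. They ranged from 2 to 12 with 1 library left out: 4 and 8 without the first and second 0 h library, 12 without the first 6 h library. With fewer libraries each class has fewer conditions to meet, by construction. H3K27ac overlap (80.4%) was 90.5% with the stronger 50% and 66.7% when 50% of the locus had to overlap. By percentile in place of fold, an alternative added after seeing the data, both 6 h values were lower at 4 loci instead of 2 and higher at 1 instead of 0. Ordering by −log10 p, added after seeing the data, moved each strength by less than its spread, with Ciart (40.16) then above Cry2 (39.34). Unknown depth limits any reading of an absent call.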
